A study of Mus musculus with 2 samples.

Results

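The 8 transcription regulators of the early gonad, *Nr5a1*, *Wt1*, *Gata4*, *Zfpm2*, *Lhx9*, *Emx2*, *Cbx2* and *Six4*, were followed through 10 groups of foetal mouse gonadal somatic cells. They were taken as a set because each is known to act in the bipotential gonad, and their symbols were matched to the identifiers of the gene count table. All 8 were found among the 42422 genes of the table, and all 8 were among the 15125 genes with enough counts to be tested. The rule that names them uses no measured value, but the set was proposed with earlier results of these data known.

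The cells were the GFP-negative somatic cells of E12.5 gonads, sorted from embryos of 129T2svJ Oct4-eGFP males and Swiss females in which the transgene marks germ cells. Cells of both sexes were taken before culture (0 h) and after culture for 24 h or 72 h in the vehicle DMSO. Gonads of XY embryos alone were also cultured for these times in 500 nM FGFRi (BGJ398, an inhibitor of FGF receptors) or 500 nM MEKi (PD0325901, an inhibitor of the kinases MEK1/2). All embryos carried the wild-type genotype apart from the reporter, each sample was a pool of gonads, and there were 4 libraries in each group. Gonads were cultured with the mesonephros attached and it was removed before sorting. The libraries were sequenced as 2 sets: set 3 held the 0 h groups and the 24 h groups with DMSO and MEKi, and set 4 held all 72 h groups and the 24 h group with FGFRi. A difference between 72 h and 24 h with DMSO, or between FGFRi and DMSO at 24 h, therefore cannot be told apart from a difference between sets. Nothing in the labels says how far the 4 libraries of a group were prepared independently, so p-values measure the spread between these libraries.

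Total counts were 1380707 to 4836550 per library, with a median of 2248854. The sex labels of all 40 libraries were matched by *Xist*, at 1090 to 2427 counts in 12 libraries labelled XX against 0 to 14 in 28 labelled XY, and by the Y-linked gene *Ddx3y*, at 0 to 3 against 65 to 253. The summed level of 8 Sertoli cell markers was 1997 to 2297 CPM (counts scaled to a common library size by the TMM method) in XY cells at 0 h and 113 to 239 CPM in XX cells, and that of 7 pre-granulosa markers was 100.4 to 127 and 1525 to 1904 CPM. Germ cell markers, 5 genes, summed to 49.5 to 70.0 CPM in XX and 135 to 219 CPM in XY cells at 0 h, although cells with GFP were sorted away.

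The bipotential gonad arises as a thickening of coelomic epithelium over the mesonephros, and its somatic cells later take on either Sertoli or pre-granulosa identity. WT1, a zinc finger protein, and NR5A1, an orphan nuclear receptor also called SF1, are both required for the gonad to form, and NR5A1 later drives steroidogenic genes and *Amh*. GATA4 is a zinc finger factor needed for the genital ridge to thicken, and ZFPM2, also called FOG2, is the cofactor that binds it. LHX9 and EMX2 are homeodomain proteins without which the early gonad degenerates. CBX2 is the chromodomain subunit of polycomb repressive complex 1 whose loss gives XY sex reversal. SIX4 is a homeodomain protein that acts upstream of *Nr5a1* and *Sry*.

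In GRCm39, the build of the counts, *Nr5a1* (ENSMUSG00000026751.14) lies at chr2:38581468-38604642 on the minus strand and *Wt1* (ENSMUSG00000016458.14) at chr2:104956625-105003961 on the plus strand. *Gata4* (ENSMUSG00000021944.15) lies at chr14:63436362-63509141 on the minus strand, *Zfpm2* (ENSMUSG00000022306.9) at chr15:40518278-40970261 on the plus strand and *Lhx9* (ENSMUSG00000019230.14) at chr1:138752924-138776341 on the minus strand. *Emx2* (ENSMUSG00000043969.4) lies at chr19:59446804-59453789 on the plus strand, *Cbx2* (ENSMUSG00000025577.7) at chr11:118913788-118922100 on the plus strand and *Six4* (ENSMUSG00000034460.9) at chr12:73146383-73160230 on the minus strand. All 8 are annotated as protein-coding in GENCODE release M39. Antisense genes overlap *Nr5a1*, *Wt1* and *Emx2* on the other strand (*Nr5a1os*, *Wt1os* and *Emx2os*). On that strand *Mnat1* overlaps *Six4*, and 1, 4 and 1 unnamed gene models overlap *Gata4*, *Zfpm2* and *Cbx2*. *Gata4* and *Zfpm2* also share their own strand with 1 and 3 unnamed gene models, to which part of their reads could have been assigned. The counting used strand. Counts were made from the 3′ ends of transcripts, so levels are compared between libraries for each gene and not between genes.

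The promoters of *Lhx9* and *Emx2* are shown because these were the homeodomain genes of the set called higher in XX cells. The RefSeq promoter table, in the build GRCm38.p6, holds a window for 3 of the 8 genes (*Lhx9*, *Emx2* and *Six4*). Each line gives the 250 bases before the annotated transcription start, 5′ to 3′ on the strand of the gene, for *Lhx9* at chr1:138842445-138842694 on the minus strand and for *Emx2* at chr19:59458440-59458689 on the plus strand. Capitals mark a match to 1 of 5 motifs searched on both strands.
*Lhx9*: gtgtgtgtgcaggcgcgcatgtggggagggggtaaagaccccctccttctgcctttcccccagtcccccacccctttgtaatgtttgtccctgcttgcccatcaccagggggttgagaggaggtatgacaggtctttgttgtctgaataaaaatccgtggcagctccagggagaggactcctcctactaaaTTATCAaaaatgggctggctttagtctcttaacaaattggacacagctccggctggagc
*Emx2*: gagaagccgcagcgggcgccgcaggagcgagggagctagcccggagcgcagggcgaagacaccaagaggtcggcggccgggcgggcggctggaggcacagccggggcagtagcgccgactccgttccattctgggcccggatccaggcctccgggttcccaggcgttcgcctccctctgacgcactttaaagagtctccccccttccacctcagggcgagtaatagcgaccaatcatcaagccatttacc
The motifs were the homeodomain core TAATTA, the GATA sites TGATAA and AGATAA, the nuclear receptor half-site AAGGTCA and the WT1 and EGR site GCGTGGGNG; the first GATA site and the second share the letters GATAA, and no match overlapped another. The *Lhx9* window holds 1 match, TGATAA on the other strand, which begins 59 bases before the start and is written TTATCA above, and the *Emx2* window holds none. Among all 32851 windows of the same length in the table, TGATAA was found in 7.94%, AGATAA in 9.99%, TAATTA in 4.84%, AAGGTCA in 4.08% and GCGTGGGNG in 1.65%. The *Emx2* window is richer in G and C, at 67.2% with 24 CpG dinucleotides, than the *Lhx9* window, at 53.6% with 4. A match is a description of letters and no evidence of binding, and no measurement of binding was made in these cells.

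*Emx2* varied most over the 10 groups and *Zfpm2* least. The ratio of the highest to the lowest group mean was 5.97 for *Emx2*, 3.44 for *Wt1*, 3.39 for *Lhx9*, 2.83 for *Six4*, 2.41 for *Cbx2*, 2.25 for *Nr5a1*, 1.85 for *Gata4* and 1.41 for *Zfpm2*. XX cells at 0 h had the highest mean for 6 genes (*Nr5a1*, *Wt1*, *Gata4*, *Lhx9*, *Emx2* and *Cbx2*) and the lowest for *Six4*. For *Wt1*, 3 XX groups came first, and 6 of the 9 steps between neighbours in the order of group means were larger than the larger of the 2 SDs. The same held for 5 of 9 steps for *Nr5a1* and *Emx2*, 4 for *Lhx9*, 2 for *Gata4* and *Cbx2* and 0 for *Zfpm2* and *Six4*, whose neighbouring groups could not be ordered beyond their spread.

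**Figure D1:**
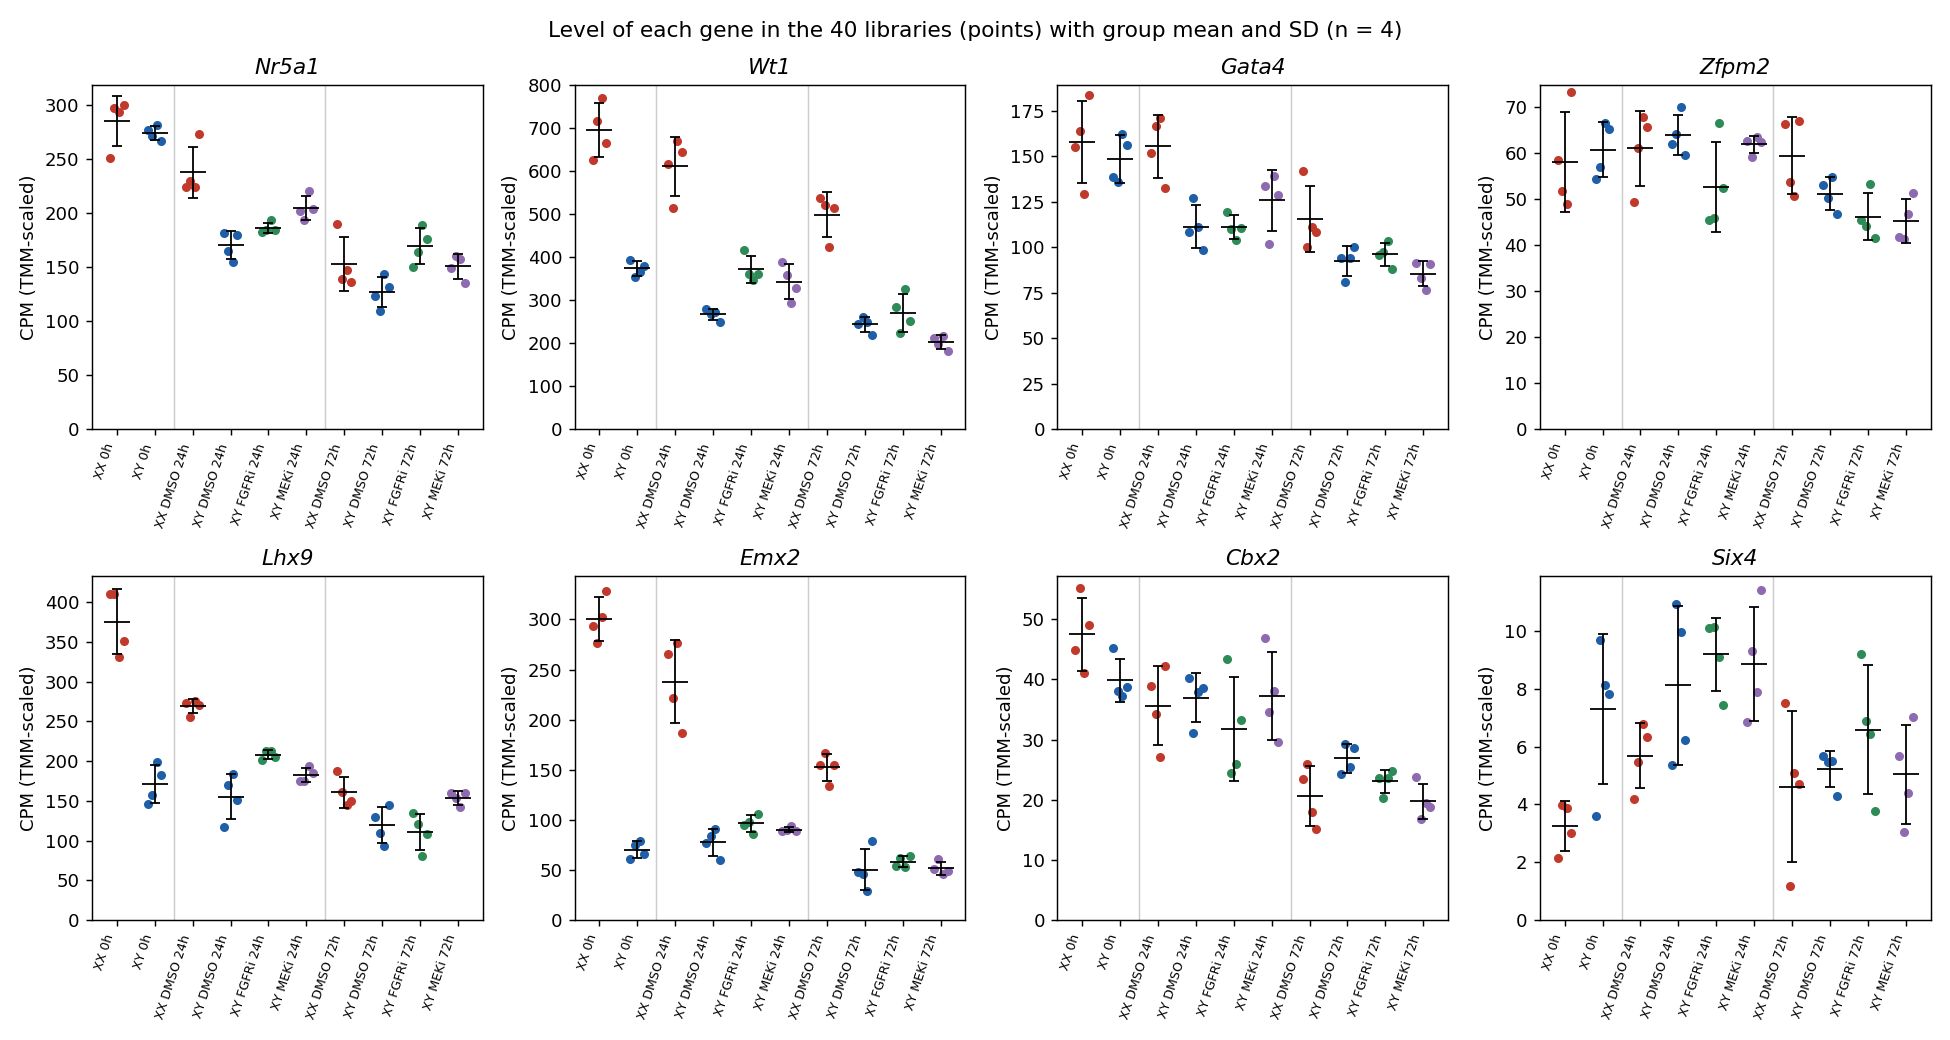
Level of each of the 8 genes in CPM (vertical axis, from 0, scaled by TMM) in the 10 groups (horizontal axis). Coloured points are the 4 libraries of a group, the black bar is their mean and the error bar their SD. The 3 XX groups (red) stand apart for *Wt1* and *Emx2*, and *Zfpm2* is nearly level, with a ratio of the highest to the lowest mean of 1.41.

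XX and XY somatic cells were compared at 0 h, 24 h and 72 h to ask which of these genes differed by sex. *Wt1* and *Emx2* were higher in XX cells at all 3 times, *Lhx9* at 0 h and 24 h, and *Six4* was lower in XX cells at 0 h. A gene was called when edgeR's quasi-likelihood test gave a false discovery rate (FDR, Benjamini-Hochberg over all genes tested) below 0.05 and the fold change was at least 1.5. By this rule 4 of 8 genes were called at 0 h, 3 higher and 1 lower, against a background of 17.3% of all genes tested (8.01% higher and 9.32% lower). At 24 h 3 of 8 were called, all higher, against 19.6% (9.24% higher), and at 72 h 2 of 8, both higher, against 20.3% (9.47% higher). The median log2 fold change of the 8 genes was 0.18 at 0 h, 0.48 at 24 h and 0.30 at 72 h, beside -0.01 for all genes tested at each time.

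*Emx2* showed the largest difference. Before culture the 4 XX libraries held 293, 276, 303 and 329 CPM and the 4 XY libraries 60.5, 74.5, 79.4 and 65.7 CPM. The means were 300.3 ± 21.9 and 70.0 ± 8.5 CPM (SD, n = 4), which is a 4.29-fold difference (log2 fold change 2.10, standard error 0.147, FDR 2.92e-17). After 24 h with DMSO the values were 266, 222, 276 and 187 CPM in XX and 77, 84.3, 90.4 and 59.5 CPM in XY cells, and after 72 h 155, 167, 134 and 155 and 47.6, 45.7, 29.4 and 78.5 CPM. No XX library overlapped an XY library at any time. The log2 difference came to 1.60 (standard error 0.14, FDR 6.27e-14) at 24 h and 1.59 (standard error 0.153, FDR 1.89e-12) at 72 h.

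*Wt1* was higher in every XX library than in any XY library at each time. At 0 h the XX libraries held 627, 717, 771 and 665 CPM and the XY libraries 394, 355, 367 and 380.4 CPM. At 24 h they held 617, 515, 670.2 and 644 and 280.2, 268, 272 and 250.0 CPM, and at 72 h 538, 522, 423 and 514 and 245, 261, 249.8 and 219 CPM. The difference was 1.85-fold at 0 h (log2 fold change 0.89, standard error 0.103, FDR 4.67e-10), 2.28-fold at 24 h (FDR 3.85e-14) and 2.04-fold at 72 h (FDR 8.93e-12).

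*Lhx9* differed most before culture. Its XX libraries held 410.4, 410.0, 331 and 351 CPM at 0 h, 273, 256, 276 and 270.0 CPM at 24 h and 187, 161, 144 and 149 CPM at 72 h. Its XY libraries held 146, 158, 198 and 183, then 118, 170.0, 183 and 150.5, then 129.9, 109.9, 93.2 and 145 CPM. The sexes were apart at 0 h and 24 h and overlapped at 72 h, when the highest XY library just passed the lowest XX library. The fold was 2.19 at 0 h (FDR 6.72e-11), 1.72 at 24 h (FDR 4.53e-07) and 1.34 at 72 h (FDR 0.00873, under the fold threshold). The change of this difference between 24 h and 72 h was itself not called, and the 24 h call was lost when the test was made against 1.5-fold rather than 0 (FDR 0.116 with glmTreat, 0.313 with voom and treat).

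*Nr5a1* did not separate the sexes at 0 h, with 251, 297, 294 and 299 CPM in XX and 276, 271, 282 and 266 CPM in XY libraries. At 24 h it held 224, 230.0, 224 and 273 CPM in XX and 182, 165, 155 and 179.7 CPM in XY libraries, with no overlap. At 72 h the values were 189.8, 139, 148 and 136 and 124, 109, 143 and 132 CPM, with overlap. It was 1.4-fold higher in XX cells at 24 h (FDR 6.78e-05) and 1.21-fold at 72 h (FDR 0.0377), both under the fold threshold. The difference between the sexes was larger at 24 h than at 0 h by 0.42 on the log2 scale (standard error 0.136, FDR 0.0456 for the interaction), also under the fold threshold. For this interaction edgeR called 0 of 8 genes, against a background of 6.2%, and gave an unadjusted p below 0.05 to 5. Counts by unadjusted p, here and below, have no share of all genes tested beside them and are not read as results. The *Nr5a1* interaction was not stable: its FDR was at or above 0.05 in 12 of 16 fits that left out 1 library, reaching 0.186 without XX library F9 of 24 h, and was 0.129 with total counts. For the change of the sex difference between 24 h and 72 h, 0 of 8 were called against 2.04%, with an unadjusted p below 0.05 for 1.

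*Gata4* held 155, 164, 129 and 184 CPM in XX and 138, 136, 163 and 157 CPM in XY libraries at 0 h, which overlapped, and 152, 167, 171 and 132 and 109, 127, 111 and 98.4 CPM at 24 h, which did not. At 72 h it held 142, 100.4, 111 and 109 and 94, 81, 94.2 and 100.4 CPM, where the lowest XX library and the highest XY library were level. It was 1.39-fold higher in XX cells at 24 h (FDR 0.000528) and 1.25-fold at 72 h (FDR 0.0309), neither past the fold threshold. The 72 h differences under the fold threshold hung on single libraries: when 1 was left out the FDR reached 0.301 for *Nr5a1*, 0.208 for *Gata4* and 0.0649 for *Lhx9*, the first 2 without XX library F11 and the last without XY library M5. *Zfpm2*, the gene of the GATA4 cofactor, was not separated by sex at any time, with group means between 51.2 and 63.9 CPM over the 6 groups without inhibitor.

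*Six4*, the least counted of the 8 genes, was the only one called lower in XX cells. It had 2 to 52 counts per library, and at 0 h 2.14, 3.98, 3.87 and 3.02 CPM in XX and 3.59, 9.67, 8.13 and 7.83 CPM in XY libraries, so that the lowest XY library lay within the XX range. The difference was 2.27-fold (log2 fold change -1.18, 95% interval -1.97 to -0.40, FDR 0.0201). This call rested on single libraries: the FDR was 0.0781 without XX library F2, 0.0511 without XX library F5 and 0.0709 without XY library M3. It was also lost with no filter on low counts (FDR 0.0673), with glmTreat against 1.5-fold (FDR 0.164) and with voom and treat (FDR 0.828). *Cbx2* held 44.8, 55.2, 41.1 and 49 CPM in XX and 45.1, 38.1, 37.3 and 38.7 CPM in XY libraries at 0 h and was not called at any time.

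**Figure D2:**
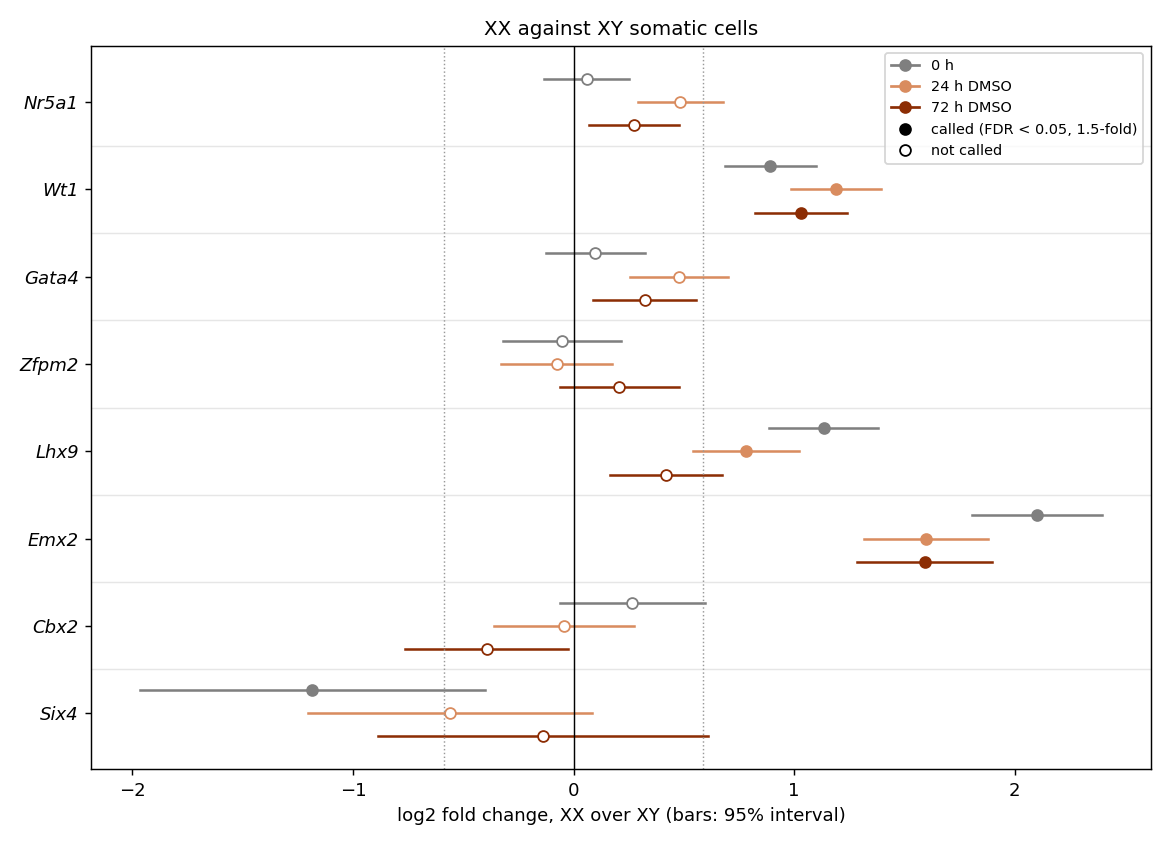
Log2 fold change of XX over XY cells (horizontal axis, log2 scale, 0 marked) for each gene (vertical axis) at 0 h, 24 h and 72 h. Points are estimates of edgeR's model with 95% intervals, filled where called, and dotted lines mark 1.5-fold. *Emx2* lies farthest to the right, at 2.10, 1.60 and 1.59, and *Six4* at 0 h farthest to the left, at -1.18.

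Cell type markers moved with sex as well. Pre-granulosa markers (7 of 7 detected) summed to 1527 to 1781 CPM in XX and 203 to 243 CPM in XY cells at 24 h, Sertoli markers (8 of 8) to 134 to 166 and 1055 to 1591 CPM, and interstitial progenitor markers (6 of 6) to 628 to 858 and 1731 to 2011 CPM. Coelomic epithelium markers, 6 genes of which *Msln* was at 0 in XX cells at 0 h, summed to 235 to 291 CPM in XX and 123 to 187 CPM in XY cells at 0 h. The part of these cell types in the sex differences was not tested. In RNA from a sorted population, fewer cells of a type and less RNA per cell cannot be told apart.

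Other early gonad regulators, a list of 14 genes of which 12 were tested, went in both directions between the sexes: 4 were called higher and 2 lower in XX cells at 0 h, 5 and 1 at 24 h, and 4 and 3 at 72 h, beside 17.3%, 19.6% and 20.3% of all genes tested called in either direction. *Gadd45g*, which acts upstream of *Sry*, stood at 325 ± 70.2 and 121 ± 27.3 CPM in XX against XY cells at 0 h and *Kdm3a*, a histone demethylase that acts on *Sry*, at 275 ± 38.2 and 86 ± 8.5 CPM. *Nr0b1*, which encodes the NR5A1 antagonist DAX1, stood at 37.2 ± 6.89 and 9.7 ± 0.964 CPM, and all 3 were called higher in XX cells at 0 h, 24 h and 72 h. *Tcf21*, a factor of interstitial cells, was lower in XX cells at each time, with 39.9 ± 7.08 and 145 ± 30.0 CPM at 0 h.

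Among the paralogues of the 8 genes, 8 of 13 were tested. *Gata6*, the close relative of *Gata4*, was higher in XX cells at each time, at 245 ± 23.3 and 107 ± 11.1 CPM at 0 h (FDR 1.71e-13) and 247 ± 16.8 and 90.1 ± 10.3 CPM at 72 h. *Nr5a2*, the relative of *Nr5a1*, stood at 5.14 ± 2.35 and 1.18 ± 0.65 CPM in XX against XY cells at 24 h and 58.5 ± 6.69 and 0.955 ± 0.669 CPM at 72 h, where the libraries did not overlap (log2 fold change 5.82, FDR 3.74e-15). *Gata2*, a factor of blood and endothelial cells, was lower in XX cells at 0 h, at 2.7 ± 1.18 and 8.39 ± 2.7 CPM. Of 6 polycomb partners of CBX2, *Bmi1* was called lower in XX cells at 0 h (7.62 ± 2.25 and 15.3 ± 4.45 CPM), *Phc2* was called lower at 24 h (80.0 ± 18.6 and 122 ± 15.3 CPM) and 0 of 6 were called by edgeR at 72 h, where 4 had an unadjusted p below 0.05.

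Among 14 genes that NR5A1, WT1 or GATA4 are known to control in the foetal gonad, 13 were tested: 2 were called higher and 9 lower in XX cells at 0 h, 2 and 8 at 24 h, and 3 and 6 at 72 h, beside the same shares of all genes tested (17.3%, 19.6% and 20.3%). *Dhh*, a Sertoli cell ligand, stood at 6.78 ± 6.22 and 194 ± 25.8 CPM in XX against XY cells at 0 h, and *Cyp26b1*, which degrades retinoic acid, at 7.76 ± 1.04 and 109 ± 4.79 CPM. *Amh* was called lower in XX cells at all 3 times, with the largest difference of the genes called lower at 0 h. *Sprr2d* went the other way, at 258 ± 29.2 and 2.87 ± 1.39 CPM at 0 h. *Cyp11a1*, the first enzyme of steroid synthesis, stood at 12.4 ± 4.67 and 143 ± 24.4 CPM at 24 h.

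Culture with DMSO was compared with uncultured cells, and 72 h with 24 h, to ask how the 8 genes behaved over time. Where they were called they fell, *Nr5a1* in XY cells by 24 h and in XX cells from 24 h to 72 h. In XY cells 1 of 8 was called at 24 h against 0 h, *Nr5a1*, beside a background of 14.4% of genes tested (5.5% lower). In XX cells 0 of 8 were called at 24 h against 0 h beside 7.73%, although *Lhx9* had an FDR below 0.05 and edgeR gave an unadjusted p below 0.05 for 5 of 8. From 24 h to 72 h, which also changes the set, 1 of 8 was called in XY cells (*Emx2*) against 7.27% (3.03% lower), and 4 of 8 in XX cells (*Nr5a1*, *Lhx9*, *Emx2* and *Cbx2*), all lower, against 3.17% of genes tested that were called lower.

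*Nr5a1* fell in XY cells from 274 ± 6.73 to 170.2 ± 12.8 CPM (SD, n = 4) within 24 h, with every 24 h library below every 0 h library. This is a log2 fold change of -0.69 (standard error 0.097, FDR 2.17e-07). With total counts in place of TMM scaling, which shifts all genes by 0.129 on the log2 scale in this comparison, it was -0.56 with an FDR of 1.31e-05 and no longer past 1.5-fold. In XX cells the same step took it from 285 ± 23.1 to 238 ± 23.7 CPM, with overlap between the libraries (FDR 0.0638). The interaction given above compares the 2 steps.

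*Wt1* and *Gata4* had an FDR below 0.05 in XY cells at 24 h against 0 h without reaching the fold threshold. *Wt1* went from 374 ± 16.9 to 268 ± 12.8 CPM (log2 fold change -0.48, FDR 0.00032), and *Gata4* from 148 ± 13.2 to 111 ± 11.9 CPM (log2 fold change -0.41, FDR 0.00479). For each of these 3 genes, *Nr5a1* included, no XY library at 24 h reached an XY library at 0 h, as was so in either direction for 22.1% of genes tested. In XX cells the gene with an FDR below 0.05 was *Lhx9*, which went from 375 ± 41 to 269 ± 8.82 CPM (log2 fold change -0.49, FDR 0.00288). *Six4* stood at 4.2, 5.45, 6.77 and 6.33 CPM in XX cells at 24 h, each above the highest 0 h library, with an FDR of 0.179.

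Between 24 h and 72 h in XX cells *Lhx9* fell from 269 ± 8.82 to 160.5 ± 19.1 CPM (log2 fold change -0.74, FDR 1.02e-05) and *Nr5a1* from 238 ± 23.7 to 153 ± 25 CPM (log2 fold change -0.63, FDR 4.52e-06). *Emx2* fell from 238 ± 41.2 to 152 ± 13.6 CPM (log2 fold change -0.65, FDR 0.000594). *Cbx2* fell from 38.9, 34.2, 27.1 and 42.3 CPM to 23.5, 26, 17.9 and 15.1 CPM (log2 fold change -0.81, FDR 0.000768). The 72 h libraries lay below the 24 h libraries without overlap for these 4 of 8 genes, as was so for 6.84% of genes tested. *Gata4* (log2 fold change -0.43, FDR 0.00633) and *Wt1* (-0.29, FDR 0.0458) were also lower but were not called, and their libraries overlapped. The FDR of *Wt1* was at or above 0.05 in 6 of 8 fits that left out 1 library. All 4 calls were lost when the test was made against 1.5-fold, with an FDR of 0.536 for *Lhx9* and 0.566 for *Cbx2* and of 1.0 for the other 2 with glmTreat, and of 1.0 for all 4 with voom and treat. Calls near the fold threshold depended on single libraries: *Nr5a1* fell below 1.5-fold without library F9 of 24 h, F4 of 72 h or F8 of 72 h (log2 fold changes -0.55, -0.58 and -0.57, the highest FDR being 0.000154), and *Emx2* without F6 of 24 h (-0.56, FDR 0.00572) or F7 of 72 h (-0.58, FDR 0.00673).

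In XY cells *Emx2* went from 77.8 ± 13.4 CPM at 24 h to 50.3 ± 20.5 CPM at 72 h, and although it was called (log2 fold change -0.64, FDR 0.00279) the libraries overlapped, since 1 of those at 72 h held 78.5 CPM. Its log2 fold change was -0.56 (FDR 0.0211) without library M4 of 24 h and -0.47 (FDR 0.0324) without library M5 of 72 h, both under the fold threshold. *Nr5a1* had an FDR of 0.00248 for the same step with a log2 fold change of -0.42. The XY libraries of 72 h lay below those of 24 h without overlap for 3 of 8 genes, *Nr5a1*, *Zfpm2* and *Cbx2*, as was so for 7.06% of genes tested, the last 2 with an FDR of 0.101 and 0.0652. Within set 4 alone, the FGFRi libraries at 72 h were lower than those at 24 h without overlap for *Wt1*, *Gata4*, *Lhx9* and *Emx2*, 4 of 8 genes, as was so for 6.16% of genes tested, and overlapped for the other 4.

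**Figure D3:**
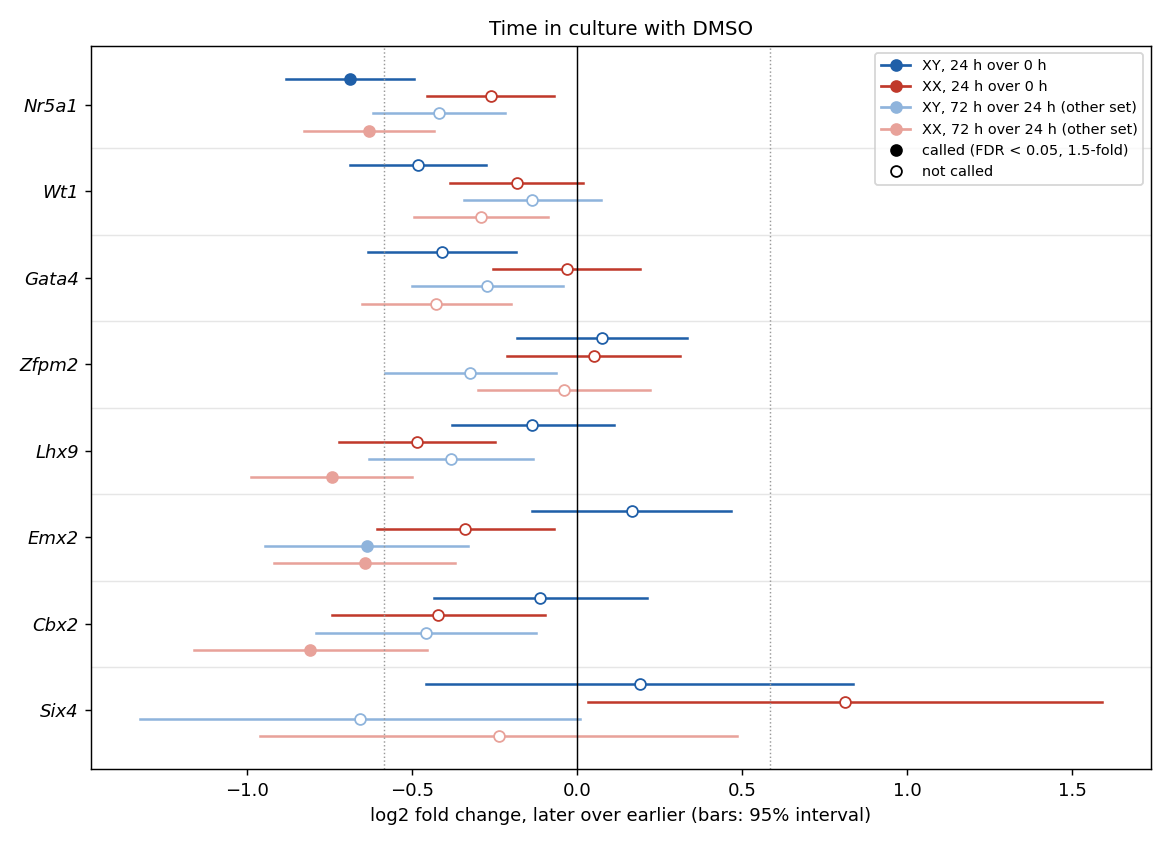
Log2 fold change over time in culture with DMSO (horizontal axis, log2 scale, later over earlier) for each gene (vertical axis), in XY and XX cells. Points are estimates with 95% intervals, filled where called, and dotted lines mark 1.5-fold. The 6 filled points all lie below 0, among them *Nr5a1* in XY cells from 0 h to 24 h and in XX cells from 24 h to 72 h. The lowest is *Cbx2* in XX cells from 24 h to 72 h at -0.81.

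Erythroid markers (5 genes) summed to 8044 to 9977 CPM in XY cells at 0 h, 1459 to 4665 CPM at 24 h and 180.4 to 1029 CPM at 72 h, and Sertoli markers to 1997 to 2297, 1055 to 1591 and 827 to 1399 CPM. Smooth muscle and pericyte markers (5 genes) went the other way, from 179 to 211 to 476 to 538 and 538 to 693 CPM. In XX cells from 24 h to 72 h germ cell markers went from 79.3 to 172 to 6.86 to 17.9 CPM and erythroid markers from 608 to 1244 to 86.9 to 348 CPM. Foetal Leydig cell markers, with *Insl3* at 0, went from 152 to 194 to 486 to 601 CPM in the same step. Only *Hsd3b1*, 1 of the 4 Leydig genes tested, was called there, so that sum does not describe the list. The part of these cell types in the changes with time was not tested. Among the other early regulators over the same steps, 0 of 12 rose and 1 fell in XY cells by 24 h (*Cited2*, a cofactor of WT1 in the gonad, 59.6 ± 2.23 and 106 ± 8.49 CPM at 24 h against 0 h), and 2 rose and 0 fell from 24 h to 72 h, *Osr1* (79.2 ± 10.6 and 22.8 ± 4.54 CPM) and *Nr0b1* (13.4 ± 4.08 and 7.51 ± 2.26 CPM). In XX cells 1 rose and 1 fell by 24 h, and 2 rose and 0 fell from 24 h to 72 h. Of all genes tested, 14.4% were called in either direction in XY cells by 24 h and 7.27% from 24 h to 72 h. In XX cells 7.73% were called in either direction by 24 h. From 24 h to 72 h 3.17% were called lower. The share called higher is not given here, so the 2 genes that rose in that step have no background beside them. *Cbx6*, a paralogue of *Cbx2*, rose in XY cells from 0 h to 24 h and from 24 h to 72 h, at 48.3, 107 and 167 CPM, and in XX cells from 24 h to 72 h.

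XY cells with FGFRi or MEKi were compared with DMSO to ask whether the inhibitors moved the 8 genes. None of the 8 was called in any of the 4 comparisons. The background was 3.27% with MEKi after 24 h and 6.47% after 72 h, and with FGFRi 3.27% after 24 h and 1.8% after 72 h. The count was 0 with edgeR, with DESeq2 and with voom and treat. An unadjusted p below 0.05 was given by edgeR to 2, 4, 4 and 1 of 8 genes in the same order. Differences under the fold threshold were present for *Wt1*, *Nr5a1* and *Lhx9*.

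*Wt1* lay above DMSO at 24 h and below DMSO at 72 h with MEKi, the second difference with an FDR above 0.05. At 24 h the MEKi libraries held 388, 359, 293 and 329.6 CPM, all above the DMSO libraries, a log2 fold change of 0.35 (standard error 0.103, FDR 0.0344). This FDR was at or above 0.05 in 6 of 8 fits that left out 1 library, reaching 0.177 without MEKi library M1. At 72 h they held 212, 198, 217 and 181 CPM, all below the DMSO libraries, a log2 fold change of -0.27 (standard error 0.106, FDR 0.0878). The interaction, the effect at 72 h less that at 24 h, was -0.62 (95% interval -0.92 to -0.33, FDR 0.0165) and was called, the 1 call among 8 genes beside a background of 1.41%. It compares 2 differences that each lie within 1 set. The call was lost without MEKi library M1 of 24 h (-0.56, FDR 0.0666) and without MEKi library M5 of 72 h (-0.57, FDR 0.0477, under 1.5-fold).

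With FGFRi *Wt1* held 418, 361, 348 and 361 CPM at 24 h, above all DMSO libraries of the other set (log2 fold change 0.47, FDR 0.00228), and 284, 223, 326 and 252 CPM at 72 h, where inhibitor and DMSO libraries overlapped. *Lhx9* held, with FGFRi, 202, 213, 212 and 205 CPM at 24 h, above all DMSO libraries (log2 fold change 0.41, FDR 0.0319) and 134, 120.3, 80.2 and 109 CPM at 72 h, with overlap. The FDR of *Lhx9* at 24 h was at or above 0.05 in 6 of 8 fits that left out 1 library, reaching 0.205 without DMSO library M2. Inhibitor and set cannot be told apart at 24 h for FGFRi. With MEKi *Lhx9* held 175, 175, 194 and 185 CPM at 24 h and 159, 154, 142 and 160.2 CPM at 72 h, when its log2 fold change was 0.36 (FDR 0.0542).

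*Nr5a1* was higher with FGFRi at 72 h, a comparison within 1 set. The FGFRi libraries held 149.7, 164, 189 and 176 CPM, each above the highest DMSO library, a log2 fold change of 0.42 (standard error 0.101, FDR 0.0127), under the fold threshold. This was 1 of 8 genes with an FDR below 0.05, beside 2.44% of genes tested. The FDR was 0.111 without FGFRi library M5, 0.0549 without DMSO library M2 and 0.0593 without DMSO library M4. MEKi libraries held 201, 193, 219.9 and 204 CPM at 24 h and 149, 160.5, 157 and 135 CPM at 72 h, and the FDR against DMSO was 0.108 and 0.0987. FGFRi libraries at 24 h held 182, 184, 193 and 184 CPM (FDR 0.539). At 24 h the libraries of both inhibitors lay above the highest DMSO library (181.8 CPM), the lowest FGFRi library only just (182.4 CPM). The FGFRi libraries of 24 h were in another set than DMSO.

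*Gata4* held 134, 102, 139 and 129 CPM with MEKi at 24 h and 91.5, 83.3, 76.6 and 91.1 CPM at 72 h, and both overlapped DMSO. *Emx2* held 50.7, 61.1, 46.1 and 48.5 CPM with MEKi and 53.5, 62, 53.3 and 64.2 CPM with FGFRi at 72 h, inside the range of the DMSO libraries. *Cbx2* held 23.7, 16.8, 19.5 and 18.9 CPM with MEKi at 72 h against 24.3, 29.3, 25.4 and 28.6 CPM with DMSO, with no overlap but an FDR of 0.1. The 95% intervals of the log2 fold change were pooled for genes not past an FDR of 0.1 and with overlapping groups. Together they ran from -0.55 to 0.72 for 6 genes with MEKi at 24 h and from -0.83 to 0.64 for 4 genes with MEKi at 72 h. With FGFRi at 72 h they ran from -0.58 to 1.02 for 7 genes. *Six4* had the widest of these intervals, and in these comparisons only its intervals reached past 1.5-fold.

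**Figure D4:**
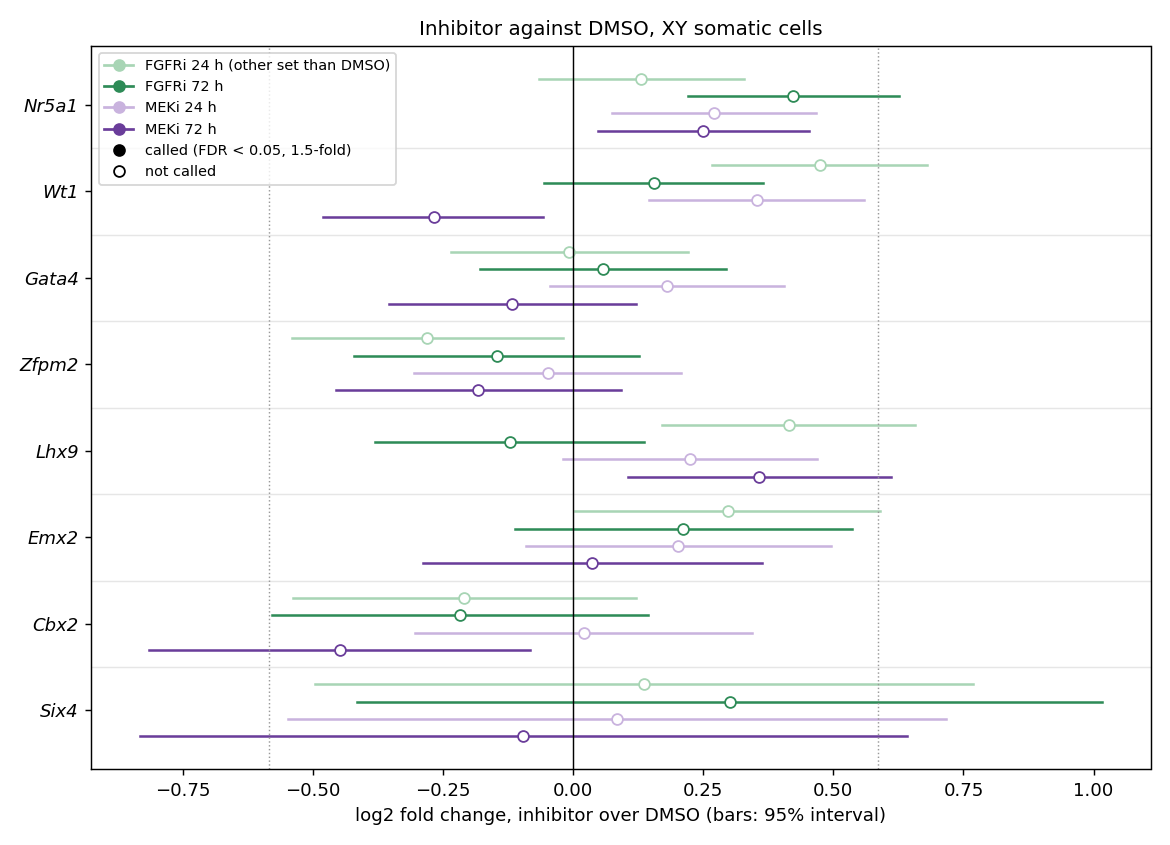
Log2 fold change of inhibitor over DMSO in XY cells (horizontal axis, log2 scale, 0 marked) for each gene (vertical axis), for FGFRi and MEKi at 24 h and 72 h. Points are estimates with 95% intervals and dotted lines mark 1.5-fold. All points are open, since none was called, and *Wt1* with MEKi lies above 0 at 24 h (0.35) and below 0 at 72 h (-0.27).

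The 2 inhibitors were set against each other at 72 h, where dose, time and set were the same. In this comparison edgeR called 0 of 8 genes, beside 6.43% of genes tested. An unadjusted p below 0.05 was given to 2 of 8, and 2 of 8 had an FDR below 0.05, beside 9.82%. *Wt1* was lower with MEKi than with FGFRi (log2 fold change -0.42, 95% interval -0.63 to -0.21, FDR 0.0049) and *Lhx9* higher (log2 fold change 0.48, 95% interval 0.23 to 0.73, FDR 0.00858), both under the fold threshold. The libraries did not overlap for these 2 of 8 genes, as was so for 14.8% of genes tested. Without FGFRi library M5 the FDR was 0.0716 for *Wt1* and 0.117 for *Lhx9*. For the other 6 genes the 95% intervals together ran from -1.11 to 0.32. The comparisons of each inhibitor with DMSO share the DMSO libraries.

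Markers of other cell types differed between inhibitor and DMSO libraries. Endothelial markers (6 of 6 detected) summed to 33.3 to 44.5 CPM with MEKi and 157 to 233 CPM with DMSO at 24 h, and to 23.9 to 30.8 and 50.0 to 107 CPM at 72 h. Germ cell markers summed to 221 to 419 CPM with MEKi and 93.7 to 137 CPM with DMSO at 24 h. Sertoli markers at 24 h summed to 1046 to 1711 CPM with MEKi and 1055 to 1591 CPM with DMSO, with medians of 1662 and 1091 CPM. Of these 8 genes 1 was called higher (*Dmrt1*) and 1 lower (*Gdnf*), so the sum does not describe the list. MEKi library M4 held both the lowest Sertoli sum and the lowest *Wt1* of its group. At 72 h Sertoli markers summed to 575 to 861 CPM with MEKi and 827 to 1399 CPM with DMSO, coelomic epithelium markers to 505 to 539 and 269 to 359 CPM, and foetal Leydig cell markers (5 genes) to 816 to 1284 and 395 to 599.9 CPM. With FGFRi at 24 h, where inhibitor and set cannot be told apart, germ cell markers summed to 18.5 to 53.8 CPM and Sertoli markers to 1478 to 2151 CPM. At 72 h with FGFRi macrophage markers (6 genes) summed to 8.81 to 19.9 CPM against 32.4 to 96.4 CPM with DMSO. Smooth muscle and pericyte markers summed to 628 to 996 against 538 to 693 CPM. Of these 5 genes, however, 2 were called higher (*Myh11* and *Acta2*) and 3 were called lower, so the sum does not describe the list. FGFRi library M5 of 72 h stood apart from the rest of its group, with a Sertoli sum of 2446 CPM and an interstitial sum of 1161 CPM, and held the highest *Nr5a1* and *Wt1* and the lowest *Lhx9* of the group. The part of these cell types in the values of *Wt1*, *Nr5a1*, *Lhx9* and *Cbx2* was not tested.

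Of 13 tested targets, 3 rose and 3 fell with MEKi at 72 h (background 6.47% in either direction), 0 rose and 2 fell with MEKi at 24 h (3.27%), 3 rose and 0 fell with FGFRi at 72 h (1.8%), and 1 rose (*Amhr2*) and 1 fell (*Sprr2d*) with FGFRi at 24 h (3.27%). With MEKi at 72 h *Cyp17a1* (66.4 ± 28.5 and 28 ± 4.83 CPM against DMSO, FDR 0.000868) and *Hsd3b1* (606 ± 138 and 275 ± 51.2 CPM, FDR 3.34e-06), enzymes of steroid synthesis, were higher, and *Cyp26b1* (13 ± 2.88 and 36.9 ± 4.67 CPM, FDR 1.09e-06) was lower. *Amh* was also called lower with MEKi at 72 h, with the largest fall of the targets called lower. *Cyp17a1* was lower with MEKi at 24 h, at 48.7 ± 15 and 96.4 ± 18.3 CPM. With FGFRi at 72 h *Vnn1* (56.3 ± 27.5 and 30.8 ± 8.16 CPM) and *Hsd3b1* (438 ± 109 and 275 ± 51.2 CPM) were higher, both with overlapping libraries.

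Of the other 12 early regulators tested, 3 rose and 0 fell with MEKi at 72 h (background 6.47% in either direction). With FGFRi at 24 h, where inhibitor and set cannot be told apart, 1 rose and 0 fell (3.27%). With MEKi at 24 h (3.27%) and FGFRi at 72 h (1.8%) edgeR called 0, and 2 and 4 had an unadjusted p below 0.05. *Osr1*, a factor of the intermediate mesoderm, stood at 155 ± 22.4 and 79.2 ± 10.6 CPM with MEKi against DMSO (FDR 0.000638), *Nr0b1* at 25 ± 6.22 and 13.4 ± 4.08 CPM and *Gadd45g* at 140.5 ± 8.32 and 87.7 ± 8.3 CPM. *Osr1* was higher with MEKi than with FGFRi as well, at 155 ± 22.4 and 68.9 ± 21.6 CPM. With edgeR 0 of 8 paralogues and 0 of 6 polycomb partners were called in any of the 4 comparisons of an inhibitor with DMSO. An unadjusted p below 0.05 was given by edgeR to 5 of 32 pairs of gene and comparison for the paralogues. For the polycomb partners it was given to 9 of 24 pairs. The share of all genes tested is not given for these counts, so they have no background. Pairs of the same time share DMSO libraries, and with FGFRi at 24 h inhibitor and set cannot be told apart.

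The likeness of the 8 genes over the 40 libraries is given as a description, since libraries share groups, sets and depth. Pearson's r of log2 CPM was highest for *Wt1* with *Emx2* (0.899), *Lhx9* with *Emx2* (0.847) and *Nr5a1* with *Gata4* (0.816). Once the mean of each group was taken off, the same pairs had r of -0.149, 0.473 and 0.211. *Six4* had r between -0.331 and 0.225 with the others over the 40 libraries.

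**Figure D5:**
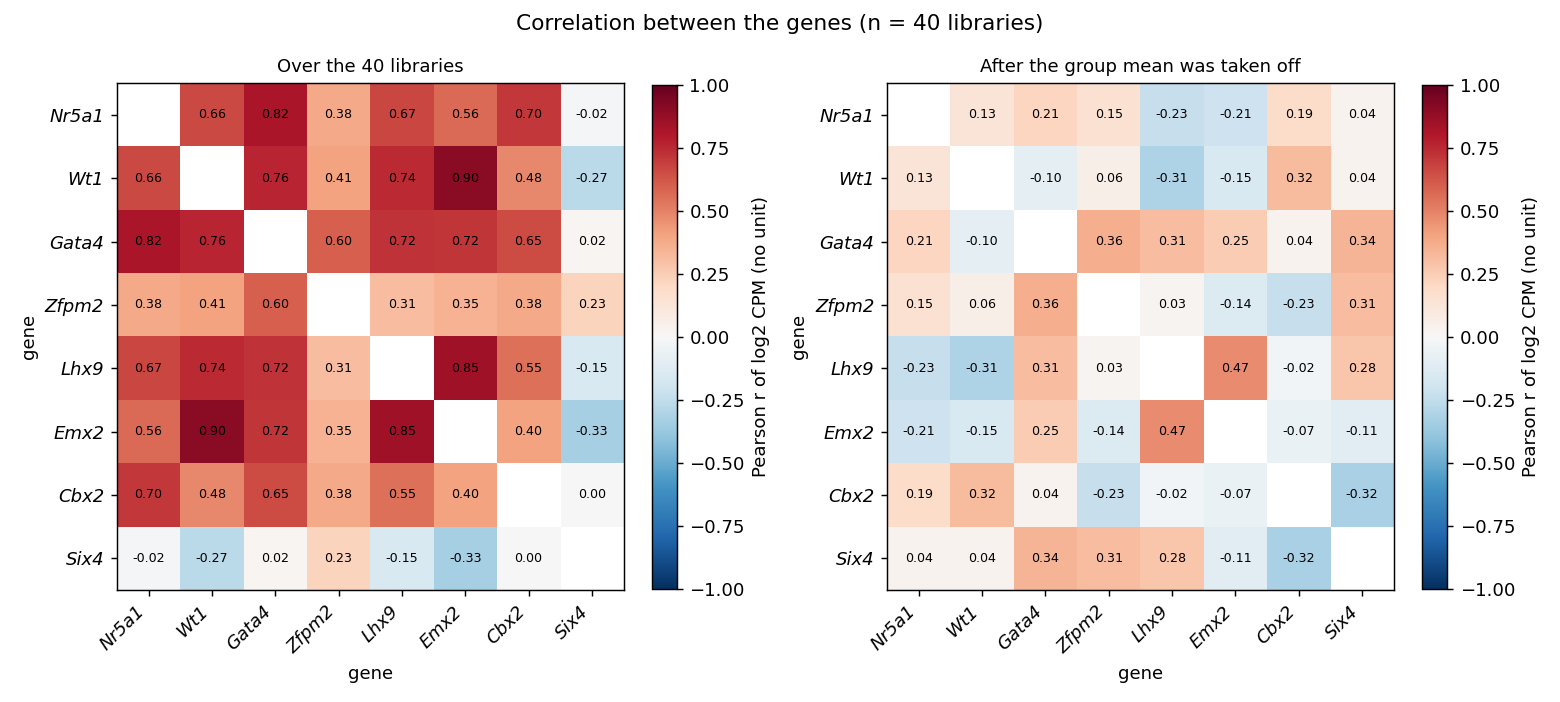
Pearson's r of log2 CPM between each pair of the 8 genes (both axes) over 40 libraries, as measured (left) and after the mean of each group was taken off (right). The colour scale runs from -1 to 1. *Wt1* with *Emx2* goes from 0.90 on the left to -0.15 on the right, and *Lhx9* with *Emx2* from 0.85 to 0.47.

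Among 12981 tested genes with a mean of at least 5 CPM, the gene most like *Wt1* over the 40 libraries was *Kitl* (r = 0.955), the KIT ligand, followed by *Lgals7* (0.938) and *L3mbtl4* (0.937). The gene most like *Emx2* was *Emx2os* (0.957), the antisense gene that overlaps it, followed by *Arhgap29* (0.937) and *Kdm3a* (0.934). *Nr5a1* was most like *Hs6st1* (0.885), *Cpa1* (0.865) and *Cul4b* (0.847), and *Gata4* most like *N4bp2* (0.894), *Cpa1* (0.857) and *Hmga1b* (0.844), a near copy of another gene whose counts are uncertain for that reason. *Lhx9* was most like *Loricrin* (0.861), *Gabra4* (0.854) and *Snx31* (0.852). *Cbx2* was most like *Igf2bp1* (0.819), *Hmga2* (0.816) and *Utf1* (0.814). *Zfpm2* and *Six4* had no gene above 0.76, with *Ash2l* (0.709) and *Ppp1r13b* (0.760) first.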

How the data were processed

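Sorted somatic cells were profiled by 3′ RNA sequencing with molecular identifiers in 40 libraries, 4 in each of 10 groups. The deposited values were raw gene counts made by the authors with scPipe and Rsubread on GRCm39 with strand used, and 2 lanes were summed. The authors' code wrote tables with and without collapse of duplicate molecules, and which one was deposited is not given in the sources used here. One MEKi library of 24 h (M2) was assigned by its column name and the deposited barcode list, since the sample description lists the others only. Identifiers were named from GENCODE release M39 (40391 of 42422 matched, holding 98.98% of counts). Genes were filtered with filterByExpr and tested with edgeR 4.0.16 (TMM, quasi-likelihood, 1 model over 40 libraries, R 4.3.3), and called at a Benjamini-Hochberg FDR below 0.05 and a fold of at least 1.5. CPM values were TMM-scaled. Alternatives used DESeq2 1.42.0, limma 3.58.1, other scalings, filters and sets of libraries. The depth was 1380707 to 4836550 counts per library, and scripts were tested on simulated data. Libraries with the same number did not deviate together (24 pairs, r of -0.205 to 0.132), so numbers were not used as a block.

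The members and lists were chosen with earlier results of these data known. Named beside the 8 genes were at most 4 called genes of each fixed list and comparison, and the 3 genes most alike each member over the libraries. The called genes named were not always those with the largest change.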

Additional observations from a re-analysis of the deposited data

Results flagged for a closer look

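Among 80 combinations of gene and group, 3 had a library farther from the rest than Dixon's critical value for 4 libraries allows, and chance alone flags about 1 in 20. *Nr5a1* was 250.7 CPM in XX library F2 at 0 h, while the other 3 held 293.6 to 299.3 CPM. *Nr5a1* was 272.8 CPM in XX library F9 at 24 h with DMSO, while the others held 223.5 to 230.0 CPM. *Six4* was 4.28 CPM in XY library M6 at 72 h with DMSO, beside 5.47 to 5.66 CPM in the others.

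Of 24 interaction contrasts of the 8 genes, 2 had an FDR below 0.05 with edgeR. For *Nr5a1* the difference between XX and XY cells was larger at 24 h than at 0 h by 0.425 on the log2 scale (FDR 0.0456), but the FDR was at or above 0.05 in 12 of 16 fits that left out 1 library and ran from 0.0414 to 0.186 over them. For *Wt1* the effect of MEKi at 72 h less that at 24 h was -0.621 (FDR 0.0165), with MEKi libraries above DMSO at 24 h and below DMSO at 72 h.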

How the results depend on the processing

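Of 15 counts of genes called, 11 stayed within 1.5 times of the value given under every alternative run. The count for XY cells at 24 h against 0 h (1) was 0 with total counts, with glmTreat against 1.5-fold and with voom and treat. The count for XY cells at 72 h against 24 h (1) was 0 with glmTreat and with voom and treat, and 0 to 1 when 1 library was left out. The count for XX cells at 72 h against 24 h (4) was 0 with glmTreat, with voom and treat and with the replicate block, which gave an FDR of 0.0734 for *Nr5a1*, 0.0523 for *Lhx9*, 0.149 for *Emx2* and 0.586 for *Cbx2*. The libraries of a number share only that number, so the block is no pairing. The count for the interaction of MEKi with time (1) was 0 with glmTreat, with voom and treat and with the replicate block, and 0 to 1 when 1 library was left out. The treat tests ask for a change beyond 1.5-fold and so are stricter by construction. For the other alternatives the cause was not tested.

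Of 120 log2 fold changes of the 8 genes, 47 had an FDR below 0.1 or groups without overlap, and 0 of these changed sign under any alternative run. The other 73 are not given singly; 22 of them changed sign under at least 1 alternative, none was larger than 0.238 in size, and 0 were called under any alternative run. Low counts limit *Six4*, with 2 to 52 counts per library.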
